A study of Mus musculus with 5 samples.

Results

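Proximal tubule S2-like cells were the barcodes of the pooled kidney matrix that held transcripts of the basolateral organic anion transporters Slc22a6 and Slc22a8 without a transcript of the S1 glucose transporter Slc5a2 or the S3 transporter Slc7a13. A barcode was a member with at least 3000 unique molecular identifiers (UMIs, each a counted transcript), at least 200 genes, at most 25% of UMIs on the 13 mitochondrial (mt-) genes, at least 2 UMIs of Slc22a6 and at least 1 of Slc22a8. It also had 0 UMIs of Slc5a2, Slc7a13, the injury gene Havcr1, the proliferation gene Mki67 and the leukocyte gene Ptprc, and at most 1 UMI of Slc12a1, which marks the thick ascending limb. Of 37382 barcodes that passed the depth, gene and mitochondrial limits, 2106 were members, a share of 5.63% (exact binomial 95% interval 5.40 to 5.87). The 8 genes of the rule chose the cells, so their levels are given as a description only.

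The kidneys came from male C57BL/6J mice aged 6 to 8 weeks. Unilateral ischemia-reperfusion (UIR) was made by clipping the left renal pedicle for 35 min with the right kidney left in place, and kidneys were taken on day 1, 3, 14 or 28 after injury (AKI day 1, AKI day 3, AKI day 14 and AKI day 28) or from Sham mice. Each condition was listed as 1 sample, and no allele or drug differed between them. The methods name 3 mice for a kidney sample and a merge of more matrices than the 5 libraries held here, so whether a library pools mice is not known. The libraries are numbered 1 to 5 by a barcode suffix that the labels do not tie to a condition. The matrix was therefore 1 pooled sample. No test was run, libraries are named by number, and a difference between libraries can be one of condition, mice or preparation, which cannot be told apart. Interval limits cover counting error only, and the labels describe the cell type of every sample by 1 name that is not a kidney cell.

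The proximal tubule reabsorbs most of the filtered glucose, amino acids, phosphate and bicarbonate, and it secretes organic anions and cations, drugs and toxins among them. Its convoluted start is the S1 segment, its straight end is the S3 segment, and S2 lies between them. S2 is known as the main place of organic anion secretion: Slc22a6 (OAT1) and Slc22a8 (OAT3) take anions up from blood in exchange for dicarboxylates, which the sodium-coupled transporter Slc13a3 (NaDC3) brings into the cell. Slc22a6 and Slc22a8 were used by the rule, and Slc13a3 was the marker of the class that the rule did not use.

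Slc22a8 and Slc22a6 are neighbours on chromosome 19 of GRCm38.p6, both on the plus strand. By the GENCODE annotation Slc22a8 spans 8591254 to 8611835 and Slc22a6 spans 8618039 to 8628299, with 6203 bases between them. Slc13a3 spans 165405028 to 165473230 on the minus strand of chromosome 2. The 250 bases before each RefSeq start were searched on both strands for the core letters of the HNF1 motif, GTTAAT read on either strand, since HNF1 factors are known regulators of proximal tubule transporters. The 2 windows shown are the 30 bases around the match in each of the genes that define the class, with the match in capitals, from RefSeq promoters of GRCm38.p6. That of Slc22a8 (chr19:8593089-8593118, plus strand) holds the match 81 to 76 bases before the start and that of Slc22a6 (chr19:8617928-8617957, plus strand) 56 to 51 bases before it.
Slc22a8: cccctgccggatGTTAATcttccaaagaaa
Slc22a6: aatactcacaggGTTAATccttctgacacc
Of all 32851 promoter windows of this length, 2113 (6.43%) held these letters. All 250 bases of the Slc22a8 window, and 0 of the Slc22a6 window, lie in GENCODE exons. No match was found in the window of Slc13a3, and the full palindromic HNF1 motif (in 11 of 32851 windows) and the HNF4 letters CAAAGTCCA (in 126) matched none of the 3. A match is a stretch of letters and not a measured binding site.

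Libraries 1 to 5 held 275, 276, 698, 496 and 361 S2-like cells, which was 4.64%, 4.21%, 5.84%, 7.75% and 5.52% of their kept barcodes. Over the libraries the class summed 13907951 UMIs, between 1943246 in library 1 and 4514535 in library 3. The median cell had 6033.5 UMIs, 2093 genes and 10.8% mitochondrial UMIs. Of the 2106 barcode sequences, 16 were also kept in another library, and 0 were members in more than 1 library. Doublets were kept, and library 1 stood apart from the others in Scand1, AY036118 and Gm42418, which are described with the library spread.

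For comparison, S1 cells were those with at least 2 UMIs of Slc5a2 and 0 of Slc7a13 (7977 cells), and S3 cells those with at least 2 of Slc7a13 and 0 of Slc5a2 (8816 cells), with the same other limits. The mix of segments differed widely between libraries. Among the cells of the 3 classes, S2-like cells were 7.31%, 7.61%, 17.1%, 15.5% and 8.52% in libraries 1 to 5, whereas S3 cells were 70.6%, 53.4%, 4.56%, 30.7% and 72.2%. Among these 3 classes library 3 held the largest share of S2-like cells and the smallest of S3 cells, whereas of all kept barcodes library 4 held the largest share of S2-like cells. A library with fewer cells of a segment and 1 with less RNA of the segment's marker per cell cannot be told apart by this rule.

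Cells just outside the limits of the rule also held Slc13a3, and whether levels change gradually across a limit was not tested. S2-like cells with just 2 UMIs of Slc22a6 (342 cells) had 344 CPM (UMIs per 1000000 UMIs) of Slc13a3, and cells with 1 UMI that met every other limit (359 cells) had 253 CPM. Cells with 1 UMI of Slc22a8 (769 members) had 377 CPM, and those with none (1009 cells, outside) had 316 CPM. Barcodes kept out by 1 UMI of Slc7a13 (989 cells) were at 412 CPM of Slc13a3 and 44104 CPM of Kap. Barcodes kept out by 1 UMI of Slc5a2 (1087 cells) were at 399 CPM of Slc13a3 and 19811 CPM of Kap. The 82 members nearest above the UMI limit were at 338 CPM of Slc13a3, and the 80 cells nearest below it at 337 CPM. Members with 23 to 25% mitochondrial UMIs were at 309 CPM beside 365 CPM in cells with 25 to 27%.

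Levels below are CPM, for which UMIs were summed over the cells of a class in a library, scaled to their total, and averaged over libraries so that each library has the same weight. The 3′ chemistry counts 1 tag per transcript, so levels are not divided by gene length. A gene was called between S2-like cells and another class when the levels were at least 2-fold apart, at least 20 CPM in the higher class and in the same direction in every library with at least 50 cells of both. The classes were cut by marker genes of the same cells, so calls and counts are descriptions of these classes, with no test.

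The label of the class held against its markers in part. All 12 pan proximal tubule markers were above 20 CPM in S2-like cells, among them the endocytic receptor Lrp2 (918 CPM), the phosphate transporter Slc34a1 (3839 CPM), myo-inositol oxygenase Miox (3198 CPM) and the transcription factor Hnf4a (203 CPM). Slc22a6 was at 959, 927, 851, 761 and 906 CPM in libraries 1 to 5, and Slc22a8 at 553, 431, 320, 367 and 511 CPM. Of the segment markers outside the rule, 5 of 5 tested S1 markers were called lower than in S1 and 4 of 4 higher than in S3 by the call defined above, and 2 of 5 S3 markers were called lower than in S3. Of all tested genes, 2.54% were called lower than S1, 0.739% higher than S3 and 0.929% lower than S3. S1 cells, which were not chosen by Slc22a6 or Slc22a8, had 245 CPM of Slc22a6 and 270 CPM of Slc22a8, and S3 cells had 902 and 176 CPM.

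Slc13a3 was at 401, 372, 473, 417 and 316 CPM in S2-like cells of libraries 1 to 5. S1 cells had 165, 186, 190, 233 and 133 CPM, and the groups did not overlap. S3 cells had 330, 357, 517, 424 and 248 CPM, a range that overlapped that of S2-like cells. The mean of 396 CPM was called higher than in S1 cells (log2 ratio 1.13, between 0.84 and 1.32 in single libraries) and was not called against S3 cells (log2 ratio 0.08, from -0.13 to 0.35). With UMIs summed over libraries it was 410.4 CPM (95% Poisson interval 399.8 to 421.2). With a mitochondrial limit of 10% the log2 ratio to S1 was 0.94, under the 2-fold limit, and the call was lost. After thinning of every cell to 3000 UMIs, 65.1% of S2-like cells had a UMI of Slc13a3 (84.2% without thinning), beside 18.4% of barcodes with a UMI of Ptprc. The median depths of these classes before thinning were 6033.5 and 5700.5 UMIs. The class with Ptprc had no limit on tubule genes, and its principal cell markers summed to 825 CPM, beside 36.6 CPM in free RNA. Its share with Slc13a3 is therefore not a clean background. In barcodes under 100 UMIs, taken as free RNA, Slc13a3 was at 152 CPM.

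**Figure D1:**
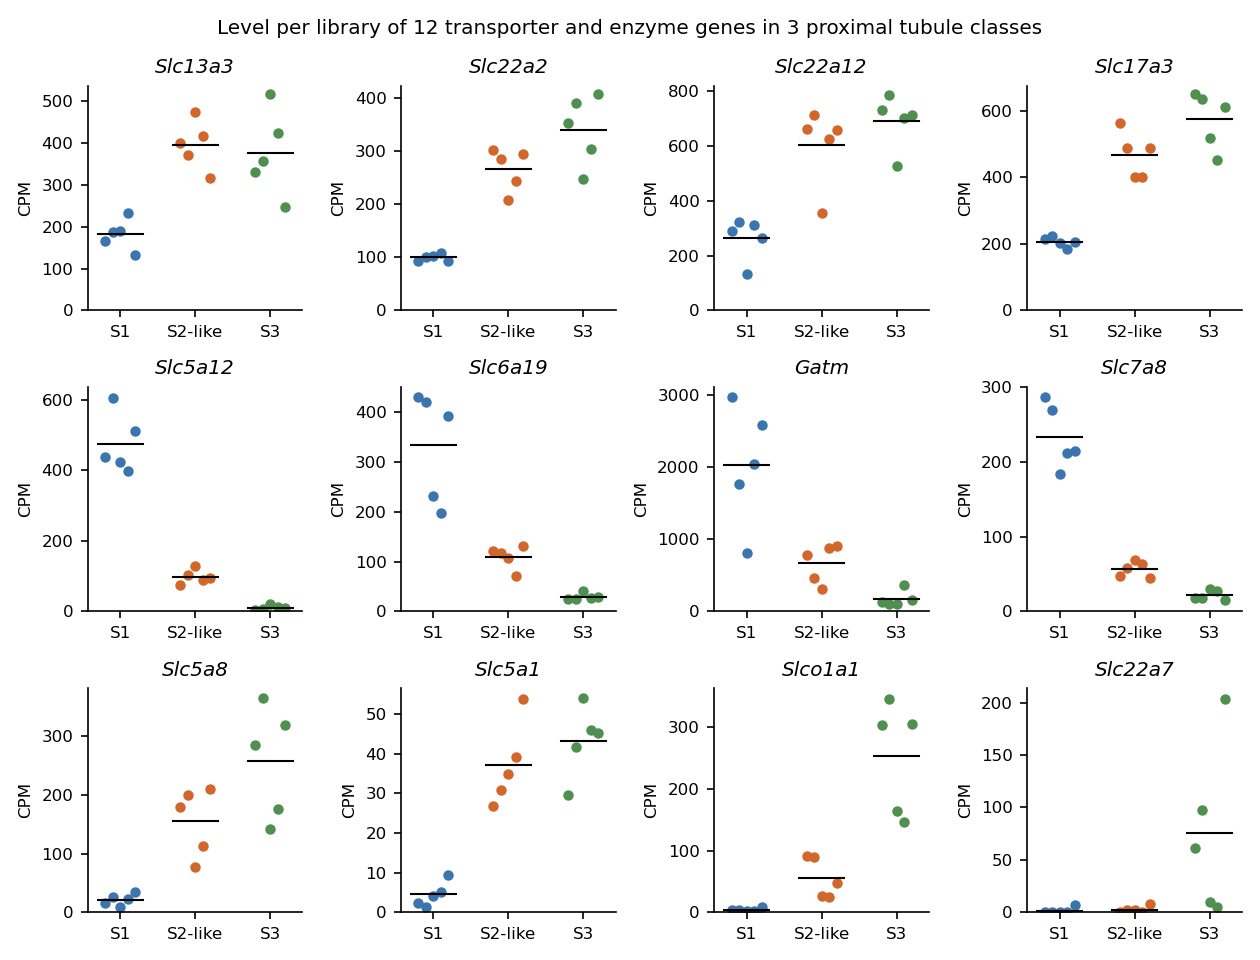
Level in CPM (linear y axes) of 12 transporter and enzyme genes in S1, S2-like and S3 cells, with 1 point for each of the 5 libraries and a line at their mean. Slc13a3, Slc22a2, Slc22a12 and Slc17a3 in S2-like cells lie above S1 and overlap S3, the means of Slc5a12, Slc6a19, Gatm and Slc7a8 lie between those of the segments (single libraries of Gatm overlap both), and Slc22a7 is near 0 in S2-like cells with a mean of 2.68 CPM.

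Most of the transcriptome was shared with both neighbours. Of 5547 genes with at least 20 CPM in S2-like or S1 cells, 123 were called higher in S2-like cells (2.22%) and 141 lower (2.54%), together 4.76%. Of 5277 genes tested against S3 cells, 39 were called higher (0.739%) and 49 lower (0.929%), together 1.67%. The median log2 ratio over all tested genes was -0.06 to S1 and 0.02 to S3. Of 5150 genes tested in both comparisons, the S2-like level lay between those of S1 and S3 for 3239, above both for 962 and below both for 949.

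No gene was called higher than both neighbours, and 1 was called lower than both. That gene, the small heat shock protein Cryab, was named after its values were seen. It was at 48.9, 25.7, 58.9, 30.7 and 26.7 CPM in S2-like cells of libraries 1 to 5, with means of 81.8 CPM in S1 and 121 CPM in S3 cells (log2 ratios -1.10 and -1.67). Its level in free RNA was 162 CPM, above all 3 classes. The call on Cryab was lost without library 5, without the highest doublet scores, with a mitochondrial limit of 10%, with Slc22a6 at 1 UMI and with UMIs summed over libraries. By contrast, 22 genes were called lower than S1 and higher than S3, and 12 genes higher than S1 and lower than S3.

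Gadd45g and Plin2, a growth arrest gene and a lipid droplet protein that were named after their values were seen, were above both neighbours in every library, by less than 2-fold in the mean. Gadd45g had means of 1176 CPM in S2-like, 766 in S1 and 854 in S3 cells, and Plin2 of 337, 232 and 245 CPM. This was not particular to them. Sms and Hbegf, also named after their values were seen, were above both neighbours in every library too. Genes with this pattern were not counted.

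**Figure D2:**
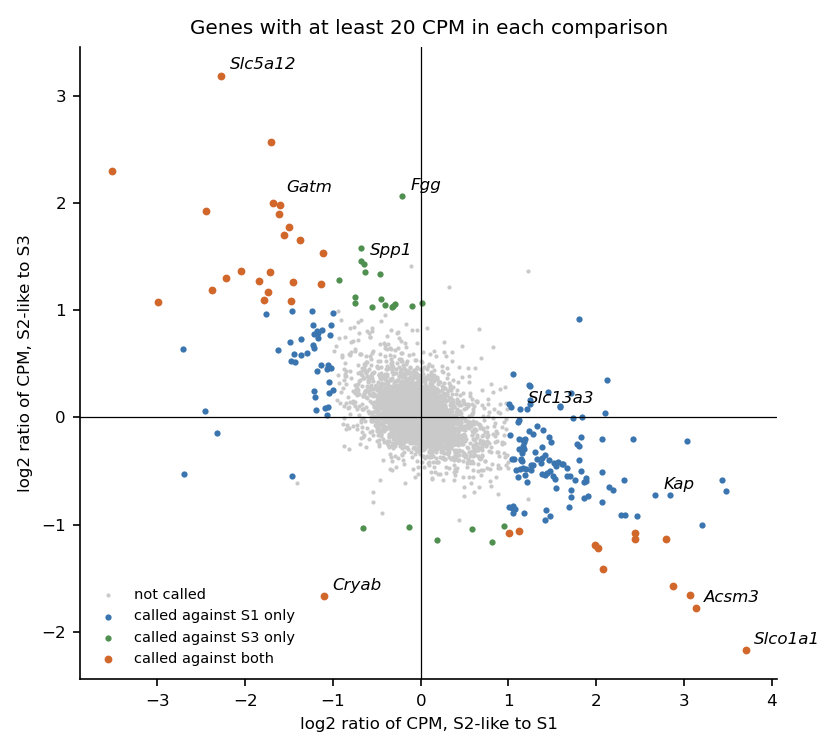
Each point is a gene with at least 20 CPM in both comparisons, placed by its log2 ratio of S2-like to S1 cells (x axis) and of S2-like to S3 cells (y axis), and coloured by whether it was called against S1, S3, both or neither. The upper left holds the 22 genes between the segments that were higher in S1 (such as Slc5a12), the lower right the 12 that were higher in S3 (such as Slco1a1), the upper right no gene called against both, and the lower left Cryab.

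Among the listed genes of organic anion uptake outside the rule, Slc13a3 was called higher than in S1. The anion carrier Slco1a1 was called higher than in S1 and lower than in S3. The membrane side of these carriers was not examined, so the group is not one of basolateral genes alone. Slco1a1 was at 91.1, 90.0, 26.8, 24.9 and 47.6 CPM, with 4.31 CPM in S1 and 253 CPM in S3 cells. Slc22a7 (OAT2) was near absence in S2-like cells at 0, 2.57, 2.22, 0.614 and 8.01 CPM, and was called lower than the 75.6 CPM of S3 cells. In S3 cells Slc22a7 itself ran from 4.84 CPM in library 4 to 204 CPM in library 5. Of the genes of this group that were tested, 2 of 2 were called higher than S1 (all tested genes, 2.22%) and 2 of 3 lower than S3 (all tested genes, 0.929%).

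Of 6 tested genes of apical anion and urate transport, 2 were called higher than S1, and of 5 tested organic cation and carnitine transporters, 1 was. Both counts stand beside 2.22% of all tested genes. Of the apical anion genes 1 of 6 was called lower than S3, beside 0.929%. The organic cation transporter Slc22a2 (OCT2) was at 302, 285, 207, 244 and 295 CPM, above all S1 libraries (93.2 to 109 CPM), and was called higher than S1 (log2 1.42). The urate transporter Slc22a12 (603 CPM) and the urate and anion exporter Slc17a3 (468 CPM) were also called higher than S1, with log2 ratios of 1.19 and 1.18. None of these 3 was called against S3. Slc22a13, a further urate and nicotinate transporter, was at 1.58 CPM and was called lower than S3 (36.9 CPM). The efflux pumps Abcc2 (315 CPM) and Abcg2 (508 CPM), the cation carrier Slc47a1 (303 CPM), and the anion transporter Slc17a1 (386 CPM) were not called against either neighbour.

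Of 6 tested carriers of glucose and monocarboxylates, 3 were called higher and 1 lower than S1, beside 2.22% and 2.54% of all tested genes, and 1 higher than S3, beside 0.739%. Slc5a12, the low-affinity lactate carrier of the early tubule, was at 75.6, 102, 130, 89.0 and 95.6 CPM in S2-like cells. This lay below every S1 library (397 to 606 CPM) and above every S3 library (4.44 to 21.4 CPM), and was called in both directions (log2 -2.27 to S1 and 3.19 to S3). Its high-affinity counterpart Slc5a8 was at 155 CPM, called higher than the 21.6 CPM of S1 (log2 2.84) and not called against the 257 CPM of S3 (log2 -0.73). The glucose carrier of the late tubule, Slc5a1, was at 37.1 CPM (log2 3.03 to S1), and the mannose and fructose carrier Slc5a10 at 127 CPM (log2 2.42). Neither was called against S3. The basolateral glucose exit carrier Slc2a2 was at 170 CPM, between 278 CPM in S1 and 91.8 CPM in S3, without a call.

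Of 12 tested amino acid transporters, 1 was called higher and 3 lower than S1, where 2.22% and 2.54% of all tested genes were, and 3 higher than S3, where 0.739% were. Slc6a19, the main apical carrier of neutral amino acids, was at 121, 116, 107, 70.3 and 131 CPM, with 334 CPM in S1 and 29.4 CPM in S3. The basolateral exchangers Slc7a7 (92.2 CPM) and Slc7a8 (56.4 CPM) were likewise called lower than S1 (log2 -1.79 and -2.05) and higher than S3 (log2 1.10 and 1.36). Slc6a18, a glycine and alanine carrier of later segments, was called higher than S1 (162 against 32.3 CPM) and was not called against the 305 CPM of S3. The other 8 tested genes of this group, which include the cystine carriers Slc3a1 and Slc7a9, the glutamate carrier Slc1a1 and the taurine carrier Slc6a6, had no call on either side.

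Of 17 tested genes of phosphate, sodium, bicarbonate and water transport, 2 were called higher and 1 lower than S1, and 2 of 16 higher than S3. The shares of all tested genes were 2.22%, 2.54% and 0.739%, and the 1 of 17 lower than S1 is near its share. The sodium pump subunit Atp1b1 (1056 CPM), the bicarbonate exit carrier Slc4a4 (840 CPM), Slc34a1 and the sulfate carrier Slc13a1 (1275 CPM) were not called against either neighbour. The phosphate carrier Slc34a3 was called lower than S1, at 6.53 CPM against 107 CPM in S1 (log2 -4.03). The water channel Aqp1 (195 CPM) and the membrane carbonic anhydrase Car4 (215 CPM) were called higher than S1, with log2 ratios of 1.09 and 1.11. The carbonic anhydrases Car12 (82.3 CPM) and Car14 (104 CPM) were called higher than S3, with log2 ratios of 1.28 and 1.03. The calls on Aqp1 and Car4 were lost with a mitochondrial limit of 10%, and that on Car14 without library 3 (log2 0.98), without library 5 (0.89), with Slc22a6 at 1 UMI and with UMIs summed over libraries.

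At the brush border, 4 of 14 tested genes were called higher than S1 (2.22% of all tested genes were) and 3 of 16 lower than S3 (0.929% were). The peptidases Mep1a (466 CPM, log2 1.48) and Ggt1 (762 CPM, log2 1.38) and the trehalase Treh (30.4 CPM, log2 1.18) were called higher than S1. Angiotensin converting enzyme, Ace, was called both higher than S1 (log2 2.44) and lower than S3 (log2 -1.08), at 31.3 CPM. Mep1b (7.05 against 94.0 CPM in S3) and neprilysin, Mme (17.4 against 44.2 CPM), were called lower than S3. The call on Treh was lost with a mitochondrial limit of 10%, and that of Ace against S3 without library 5 (log2 -0.95) and with Slc22a6 at 4 UMIs or more. The receptors of filtered protein, Lrp2, Cubn, Amn and Dab2, were not called against either.

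Of 26 tested genes of fatty acid oxidation and the peroxisome, 7 were called higher than S1, beside 2.22% of all tested genes, and none lower, with a median log2 ratio of 0.48 beside -0.06 over all tested genes. Against S3, 1 was called higher and 1 lower, beside 0.739% and 0.929% of all tested genes, with a median of -0.15 beside 0.02. The genes higher than S1 included the peroxisomal enzymes Ehhadh (log2 1.12) and Acaa1b (1.39), the fatty acid hydroxylases Cyp4a10 (1.52), Cyp4a14 (2.10) and Cyp4b1 (1.46), and Acsm3. Acsm3, which activates medium-chain fatty acids, was at 82.3 CPM and was called higher than S1 (9.37 CPM) and lower than S3 (282 CPM). The mitochondrial enzymes Hadha (127 CPM), Hadhb (115 CPM) and Acadvl (150 CPM) differed from S1 and S3 by at most 0.12 on the log2 scale. The very long-chain acyl-CoA synthetase Slc27a2, counted among the proximal tubule markers, was called higher than S1 (1653 against 723 CPM). Acsl1, the long-chain acyl-CoA synthetase, was called higher than S3 (150 against 72.0 CPM). The call on Ehhadh was lost with a mitochondrial limit of 10%, and that on Acsl1 without library 1 or library 5 (log2 0.995 and 0.994).

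Of 23 tested genes of drug and steroid metabolism, 7 were called higher than S1 and 2 lower, beside 2.22% and 2.54% of all tested genes, with a median log2 ratio of 0.44 beside -0.06. Against S3, 1 was called higher and 2 lower, beside 0.739% and 0.929% of all tested genes, with a median of -0.17 beside 0.02. Kap, the kidney androgen-regulated protein and the most abundant nuclear-encoded protein transcript of the class, was at 38538, 41754, 19756, 28358 and 40482 CPM. S1 cells had 3033 to 6711 CPM and S3 cells 39038 to 71777 CPM, and library 3 was the lowest in all 3 classes. Kap was called higher than S1 (log2 2.67) and not called against S3 (log2 -0.72). The ethanol-inducible cytochrome Cyp2e1 was called higher than S1 (934 against 311 CPM) and was not called against S3 (870 CPM). The carboxylesterases Ces1f (415 against 149 CPM in S1) and Ces2c (227 against 74.2 CPM), the acetyltransferase Nat8, the monooxygenase Fmo5 and the glucuronosyltransferase Ugt2b37 were also called higher than S1 and not called against S3. The glutathione transferase Gsta4 was called lower than S1 (17.6 against 74.0 CPM), with 40.9% of the UMIs of its highest library from 1 cell. Cyp2d26 was called lower than S1 and higher than S3 (109, 309 and 31.8 CPM in S2-like, S1 and S3 cells). The call on Ugt2b37 was lost with a mitochondrial limit of 10%. The sterol demethylase Cyp51 was called lower than S3 (69.8 against 154 CPM). The oxysterol hydroxylase Cyp7b1, at 1.11 CPM, was called lower than the 34.1 CPM of S3, where libraries 1 to 5 were at 18.8, 38.5, 0.692, 0.242 and 112 CPM. Libraries 3 and 4 of S3 were thus near 0, and without library 5 the S3 mean was 14.6 CPM, under the expression limit, and the call was lost. Genes of the Cyp2d, Cyp4a, Ces1, Ugt2b, Acsm, Nat8 and Serpina1 families have near-identical copies, so that their separate values are uncertain.

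Creatine and methyl group metabolism held calls in both directions. Of 12 tested genes of one-carbon, creatine and arginine metabolism, 2 were called higher and 2 lower than S1, and 1 of 11 higher than S3. The shares of all tested genes were 2.22%, 2.54% and 0.739%. Gatm, which makes the creatine precursor from arginine, was at 777, 470, 304, 876 and 911 CPM in S2-like cells. S1 cells had 808 to 2967 CPM and S3 cells 96.9 to 360 CPM, and within every library S2-like cells lay between them (log2 -1.61 to S1 and 1.99 to S3). The urea cycle enzyme Asl was called lower than S1 (152 against 309 CPM). That call was lost without library 1 (log2 -0.93), with a mitochondrial limit of 10%, with Slc22a6 at 1 UMI, after thinning and with UMIs summed over libraries. Bhmt2 (75.6 against 17.0 CPM) and Dmgdh (27.6 against 6.05 CPM), both of methionine and choline breakdown, were called higher than S1. None of the 11 tested genes of gluconeogenesis and ammonia formation was called against S1 or S3, and Pck1 (2246 CPM), G6pc (699 CPM) and Fbp1 (907 CPM) were among them. Of 13 tested nephron transcription factors, Hnf4g was called higher than S1, at 20.5 against 10.0 CPM, and the other 12 were not called against S1. This 1 of 13 stands beside 2.22% of all tested genes. Hnf4g lay at the expression limit, and its call was lost without library 3, 4 or 5 (log2 0.99, 0.94 and 1.03). None of 12 was called against S3.

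Of 15 tested genes of glutathione, metallothionein and Nrf2 stress, the quinone reductase Nqo1 was called higher than S1 (37.4 against 14.0 CPM) and the metallothioneins Mt1 (83.9 against 191 CPM) and Mt2 (10.3 against 21.2 CPM) lower, and none of 14 was called against S3. These 3 of 15 stand beside 4.76% of all genes tested against S1. None of 13 immediate early genes was called against S1 or S3, nor were any of the 12 and 14 tested heat shock and endoplasmic reticulum stress genes. Of the injury list outside the rule, Sox4 was called lower than S1 (9.87 against 36.3 CPM, 1 of 11 tested) and Spp1 higher than S3 (3232 against 1175 CPM, 1 of 7). Of the interferon and antigen presentation genes, Irf1 was called lower than S1 (12.8 against 25.9 CPM, 1 of 7). Of the complement, fibrinogen and iron genes, Fgb was called lower than S1 (12.6 against 29.6 CPM, 1 of 7) and Fgg higher than S3 (112 against 26.9 CPM, 1 of 6). Of all tested genes, 2.54% were called lower than S1 and 0.739% higher than S3. Several of these calls were lost at other settings. That on Mt2 was lost without library 1, 3, 4 or 5 (log2 -1.69 to -0.96), that on Irf1 without library 1 (-0.75) or library 5 (-0.91), and that on Fgb without library 5 (-0.98), where it was -1.87 without library 3. The calls on Sox4, on Fgb and of Spp1 against S3 were lost with a mitochondrial limit of 10%, and those on Sox4, Mt1, Mt2 and Irf1 with Slc22a6 at 1 UMI.

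Among the 10 genes with the largest ratios to S1 that were not in a list above, the homeobox gene Irx3 was at 38.5 CPM against 3.57 CPM in S1 cells (log2 3.43), and the pyrimidine enzyme Dpys at 27.9 against 2.51 CPM (log2 3.47). On the other side, the serine enzyme Phgdh (3.93 against 46.0 CPM), the vitamin D carrier Gc (3.85 against 61.4 CPM) and the matrix protein Sparc (7.08 against 84.9 CPM) were lower than S1, each by over 3 on the log2 scale. Sparc in free RNA was at 787 CPM, and 43.8% of its UMIs in the highest S2-like library came from 1 cell. Higher than S3 were the calcium channel Itpr2 (37.9 against 6.39 CPM), the transcription factor Osr2 (38.4 against 10.1 CPM), the ornithine enzyme Oat (64.7 against 19.9 CPM) and the carbonic anhydrase Car3 (20.9 against 4.24 CPM). All of these were also called lower than S1. The call on Sparc was lost with Slc22a6 at 1 UMI, and that of Car3 against S3 without library 1 (log2 2.14) or library 3 (2.13).

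Single S2-like cells were spread widely over the range between S1 and S3. A position was given to each cell, by a measure chosen after the data were seen, as the S3 share among its UMIs of 290 genes at least 2-fold higher in S1 than in S3 cells and 231 genes at least 2-fold higher in S3. Kap was left out because of its abundance, and each cell was thinned to 3000 UMIs, which left a median of 188 UMIs on these genes per S2-like cell. The median S3 share was 16.5% in S1, 50.9% in S2-like and 75.8% in S3 cells. The 5th and 95th percentiles of S2-like cells were 23.3% and 72.1%, which lay inside the medians of S1 and S3. Of the S2-like cells, 679 (32.2%) had a share at or below 43.7%, the 95th percentile of S1 cells, 722 (34.3%) had at least 57.0%, the 5th percentile of S3 cells, and 705 (33.5%) lay between. S2-like cells were chosen without a UMI of Slc5a2 and Slc7a13, and the axis genes were chosen on S1 and S3 cells, so the order of the medians is a description. The shares are ranges of a score and not cell types.

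The median share of S2-like cells differed between libraries, at 58.4%, 57.1%, 42.3%, 49.5% and 58.6% in libraries 1 to 5. Library 3 had the lowest median, and 52.9% of its S2-like cells fell in the S1 range, against 13.6% in library 5. Spp1, an S1-high gene of the axis, was at 8541 CPM in library 3 and 346 CPM in library 5. Without Spp1 the medians were 58.8%, 58.5%, 48.5%, 52.0% and 58.7%, and 41.3% of the cells of library 3 and 16.9% of library 5 fell in the S1 range. Library 3 had the lowest median with and without Spp1. S3 cells of library 3 and library 4 also had lower shares (medians 64.6% and 65.1%) than those of the others (75.1% to 78.9%). Including Kap moved the S2-like median to 66.4%, restricting the genes to those at least 4-fold apart moved it to 62.0%, and leaving out both Spp1 and Gpx3 moved it to 62.8%.

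**Figure D3:**
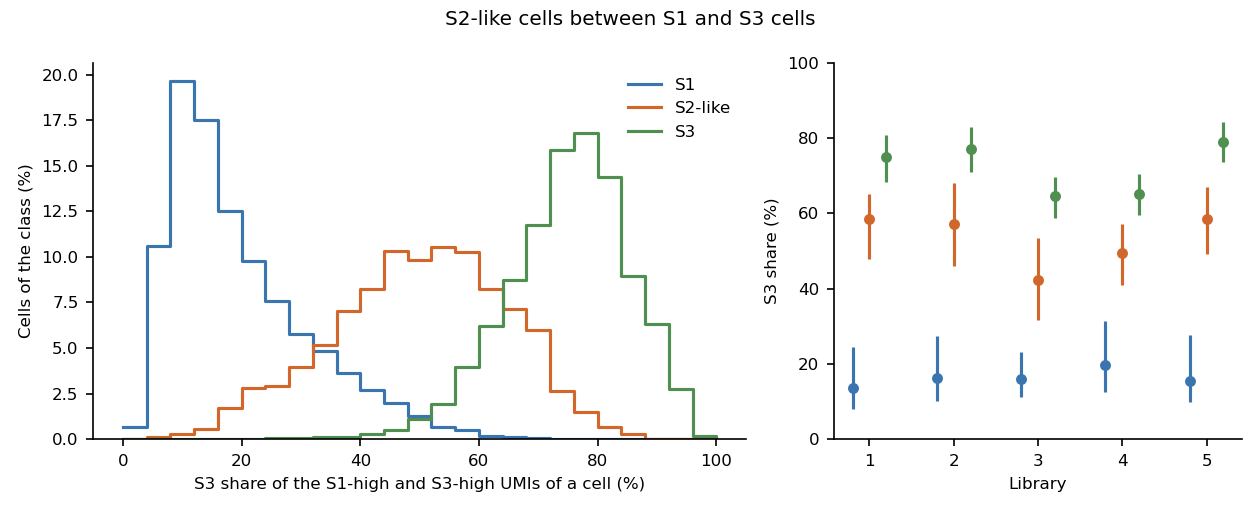
Left, distribution over cells of the S3 share of S1-high and S3-high UMIs (x axis, percent) in S1, S2-like and S3 cells (y axis, percent of the cells of the class). Right, median (point) and quartiles (bar) of the same share by library, where S2-like cells had medians of 58.4%, 57.1%, 42.3%, 49.5% and 58.6% and lay between S1 and S3 in all 5.

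Genes were also followed along this axis within the S2-like cells of each library, with Spearman's rho given as a description over 275 to 698 cells that share library and depth. Kap, which was no axis gene, had rho of 0.48 to 0.72 with the S3 share. Slc22a6 had rho of 0.15 to 0.36, and Slc22a8 of -0.11 to 0.04. Slc13a3, Gpx3 and Spp1 were axis genes, and each was left out of the share for its own rho. Slc13a3 had rho of -0.08 to 0.22. The antioxidant enzyme Gpx3, at 8535 CPM beside 16940 CPM in S1 and 5566 CPM in S3, had rho of -0.56 to -0.25, and Spp1 of -0.46 to -0.25. The mitochondrial share had rho of 0.00 to 0.29.

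Cells with Havcr1, which encodes the kidney injury molecule KIM-1, served as injured cells of the same epithelium. They had at least 2 UMIs of Havcr1 and at least 1 of Slc34a1 or Lrp2, and numbered 56, 154, 768, 100 and 1 in libraries 1 to 5. No limit was set on Slc5a2, Slc7a13, Slc22a6 or Slc22a8, so they were not matched to S2-like cells by segment. A difference from them can be one of injury or of segment, which cannot be told apart here. Library 5 did not reach 50 cells, so the comparison was made over libraries 1 to 4. Of 5751 tested genes, 93 were called higher in S2-like cells (1.62%) and 306 lower (5.32%), together 6.94%, with a median log2 ratio of -0.09. Without library 1 the number higher was 61. The injured cells had a median of 9015 UMIs against 6033.5, and the counts after thinning to 3000 UMIs per cell were 108 higher and 320 lower.

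Genes of tubular injury and failed repair were lower in S2-like than in Havcr1-positive cells. Of 19 tested genes of this list outside the rule, 17 were called lower and none higher, with a median log2 ratio of -2.54. The adhesion molecule Vcam1 was at 2.57, 20.6, 0.886 and 0.307 CPM in S2-like cells of libraries 1 to 4, against 531, 550, 6.86 and 86.1 CPM in Havcr1-positive cells. The repair transcription factor Sox9 was at 3.60, 11.8, 18.4 and 16.9 CPM against 206, 195, 51.0 and 115 CPM. The groups overlapped for Vcam1 and not for Sox9. The keratin Krt20 (log2 -5.11), the hyaluronan receptor Cd44 (-5.60), annexin Anxa2 (-4.20) and the actin-binding peptide Tmsb10 (-3.60) were also called lower. Spp1 was called lower (log2 -2.24, and -2.94 without library 3) and was still among the 15 highest genes of S2-like cells, at 3232 CPM over the 5 libraries. Single libraries moved several of these ratios by over 1.5-fold. Without library 2 the log2 ratio was -7.37 for Vcam1, -4.34 for Krt20 and -4.46 for Cd44, without library 1 it was -4.88 for Vcam1 and -6.23 for Cd44, and without library 3 it was -6.32 for Krt20, -4.82 for Anxa2 and -4.25 for Tmsb10. The call on Cd44 was lost after thinning to 3000 UMIs per cell. The keratin Krt8 (log2 -0.97) and the chemokine Ccl2 were not called. Beside 5.32% of all tested genes called lower, 6 of 8 tested interferon and antigen presentation genes were, 4 of 7 complement, fibrinogen and iron genes, and 4 of 13 immediate early genes. These counts depended on the setting. Without library 4 the complement, fibrinogen and iron list had 2 of 8 lower, as the calls on Fga (log2 -0.91) and Fgg (-0.81) were lost, and with a mitochondrial limit of 10% it had 1 of 8, with Fga, Fgb and Fgg lost. The interferon list had 4 of 8 at that limit, 3 of 7 with UMIs summed over libraries, and 5 to 7 when 1 library was left out. The immediate early list had 2 of 13 with a higher UMI minimum, 3 without library 1 or library 2, 5 without library 3 or library 4, and 6 after thinning. The 7 myeloid markers summed to 688, 770, 199.6 and 314 CPM in Havcr1-positive cells of libraries 1 to 4. In S2-like cells they summed to 152, 357, 129 and 56.5 CPM. Most of the sum of Havcr1-positive cells in libraries 1, 2 and 4 was Cd74, which accompanies MHC class II. Cd74 was at 662, 741, 45.4 and 295 CPM against 134, 316, 49.2 and 34.7 CPM in S2-like cells, and thus lower in library 3. Barcodes with a UMI of Ptprc were left out of both classes. Among the highest doublet scores were 10.7% of Havcr1-positive and 4.80% of S2-like cells, and without them 7 of 8 interferon and 4 of 7 complement, fibrinogen and iron genes were called lower. The macrophage genes C1qa and C1qb were at most 3.77 CPM in both classes in every library. Lyz2, also a macrophage gene, was at 10.2, 12.5, 14.0 and 8.61 CPM in Havcr1-positive cells of libraries 1 to 4. In S2-like cells Lyz2 was at 7.72, 19.0, 29.5 and 8.90 CPM. The part of leukocyte RNA in these lists was not tested. Of the stress genes, Srxn1, Mt1 and Mt2 of the glutathione list (3 of 15 tested) and the small heat shock protein Hspb1 of the heat shock list (1 of 13) were called lower. Without library 3 the call on Mt2 was lost (log2 -3.50) and Hspb1 was at -4.69 instead of -4.03. The call on Srxn1 was lost with a mitochondrial limit of 10%, and that on Mt1 with Slc22a6 at 1 UMI.

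Most genes of differentiated functions were not called against Havcr1-positive cells, beside 1.62% of all tested genes called higher. None of 16 tested endocytosis and brush border genes (median log2 ratio 0.11) and none of 6 apical anion genes (median 0.46) was called, and 1 of 12 amino acid carriers was (median 0.07). Of 12 proximal tubule markers 2 were called higher, Miox (log2 1.43) and the urea cycle enzyme Ass1 (1.39), and the median of the list was 0.68. Of 11 gluconeogenesis genes 2 were called, the glucose phosphatase G6pc (log2 2.11) and Pck1 (1.38). G6pc was at 783, 640, 384 and 436 CPM in S2-like cells of libraries 1 to 4, against 81.3, 141, 129 and 167 CPM in Havcr1-positive cells, and the groups did not overlap. Of 26 fatty acid oxidation genes 3 were called higher, among them Acaa2 (1.23) and Acsl1 (1.04). Slc13a3 was called higher too (log2 1.03), at 401, 372, 473 and 417 CPM against 131, 192, 227 and 266 CPM. The carbonic anhydrases Car14 (log2 1.69) and Car12, the carnitine transporter Slc22a5 (1.07) and the amino acid carrier Slc6a19 (1.06) were called higher too. Without library 1 the calls on Acaa2 (log2 0.99), Acsl1 (0.94), Slc13a3 (0.88), Slc22a5 (0.92) and Slc6a19 (0.72) were lost, and that on Slc6a19 also without library 2 (0.98). The list counts moved both ways. Fatty acid oxidation had 1 of 26 without library 1 and 5 without library 4, gluconeogenesis 4 of 11 without library 4 and 5 with a mitochondrial limit of 10%, and the proximal tubule markers 4 of 12 at both of these settings. Of 12 tested genes of one-carbon, creatine and arginine metabolism 3 were called higher (median 0.84), with 5 without library 4 and 6 after thinning.

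**Figure D4:**
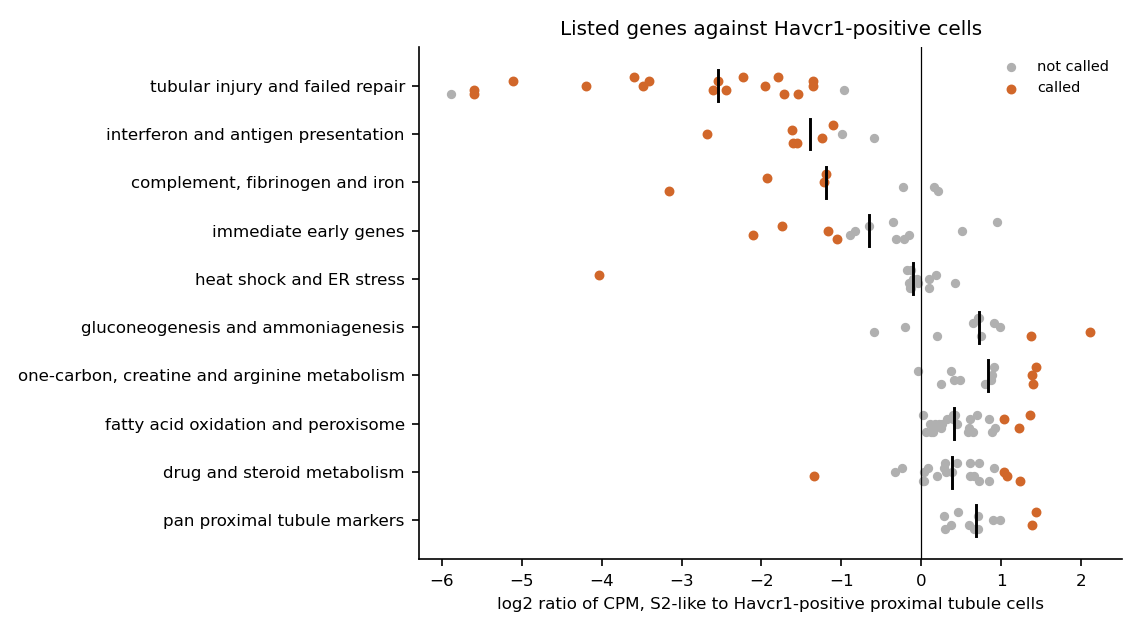
Log2 ratio of S2-like to Havcr1-positive proximal tubule cells (x axis) for the tested genes of 10 lists (rows), each point a gene, in orange where called, with a bar at the list median. Injury genes lie on the left with a median of -2.54 and 17 of 19 called, and metabolic and proximal tubule genes mostly on the right, with medians of 0.38 to 0.84.

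Levels within S2-like cells varied between the 5 libraries. Of 5979 genes with at least 20 CPM in the highest library, 1317 (22%) had a highest level at least 2-fold the lowest. Library 3 was the highest for 496 of them and library 1 the lowest for 538. Without library 1 the number was 671, and without library 3 it was 851. With a mitochondrial limit of 10% it was 2702, and after thinning to 3000 UMIs per cell 2014. Both settings leave fewer UMIs, and counting error was not taken out of the number. It also depends on the expression limit, with 3356 genes at 5 CPM and 361 at 100 CPM. A large spread can rest on 1 cell: in 67 of the 1317 genes 1 cell held at least 10% of the UMIs of the highest library, and in 17 at least 50%. Without the top cell of each gene and library 1355 genes were called, 1269 of them the same genes. Of the 10 genes with the largest spread, this held most for Aqp2 (93.8% from 1 cell), Tagln (95.2%), Hsd11b2 (85.2%), Sprr2a3 (81.8%), Psca (53.2%) and S100a6 (48.7%). Aqp2 and Hsd11b2 are genes of principal cells, and Tagln is a gene of smooth muscle. Clu and Defb1 had 17.1% and 14.5% from 1 cell.

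The other 2 of those 10 genes set library 1 apart. Scand1 was at 3.09, 96.2, 152, 210 and 189 CPM in libraries 1 to 5, and the ribosomal RNA-related transcript AY036118 at 8.23, 520, 240, 366 and 385 CPM. S1 cells had 4.14 CPM of Scand1 in library 1 and 93.8 to 248.9 CPM in the others, and free RNA had 5.39 CPM against 76.5 to 256 CPM. The low values of library 1 were therefore found in every class examined and in free RNA. Gm42418, which overlaps ribosomal RNA, followed with 322 CPM in library 1 and 3145 to 11419 CPM in the others. The levels of these 3 genes say nothing particular about S2-like cells.

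This limit, passed by 22% of all tested genes, was passed by 12 of 14 tested genes of injury, 6 of 7 of interferon and antigen presentation, 16 of 23 of drug and steroid metabolism, 7 of 11 of gluconeogenesis and 9 of 26 of fatty acid oxidation, by 4 of 12 proximal tubule markers, 4 of 15 of endocytosis and brush border and 4 of 17 of phosphate, sodium, bicarbonate and water transport, and by 1 of 12 amino acid carriers and 0 of 5 cation carriers. The lists were not tested against each other, and the levels of their genes were not matched to those of all tested genes. The genes described next were chosen from these lists after their values were seen.

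Several secreted genes known from injury, and the enzyme gene Cyp24a1, were highest in library 3. Spp1, the gene of osteopontin, was at 744, 2852, 8541, 3678 and 346 CPM in S2-like cells, and its UMIs were spread over many cells (2.36% in the top cell). S1 cells had 2030, 2756, 13905, 4336 and 2862 CPM, and S3 cells 427, 614, 2975, 1735 and 123 CPM. Library 3 was the highest in all 3 classes and also in free RNA (11347 CPM, others 927 to 2479). The chemokine Cxcl1 was at 61.2, 150, 224, 129 and 9.78 CPM, so that S2-like cells of library 5 were lowest. The fibrinogen chain Fgg was at 28.8, 207, 232, 80.7 and 13.8 CPM, and Fga and Fgb had the same highest library. Cyp24a1, which degrades vitamin D, was at 13.9, 15.9, 325, 37.1 and 72.0 CPM. S1 cells had 124, 59.2, 142, 70.8 and 125 CPM of Cyp24a1, so that library 3 was highest but close to libraries 1 and 5. In S3 cells library 3 was at 408 CPM and the others at 7.27 to 26.9 CPM.

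Several metabolic genes and the phosphate transporter Slc34a1 were lowest in library 3, which was the lowest for 240 of the 1317 genes with a spread. Ass1 was at 2524, 1247, 545, 1388 and 1629 CPM, Miox at 4391, 2841, 1510, 3626 and 3622 CPM, and Slc34a1 at 5174, 4080, 2137, 3577 and 4227 CPM. G6pc was at 783, 640, 384, 436 and 1250 CPM. The chaperone of the endoplasmic reticulum Hspa5 was highest in library 4, at 525, 619, 848, 1679 and 678 CPM, and Hsp90b1 (326, 426, 636, 820 and 470 CPM) had the same highest library. S1 and S3 cells of library 4 had 1355 and 1297 CPM of Hspa5, also their highest. Slc13a3 (316 to 473 CPM), Slc22a2 (207 to 302 CPM) and Aqp1 (183 to 211 CPM) were among the genes with less than a 2-fold spread.

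**Figure D5:**
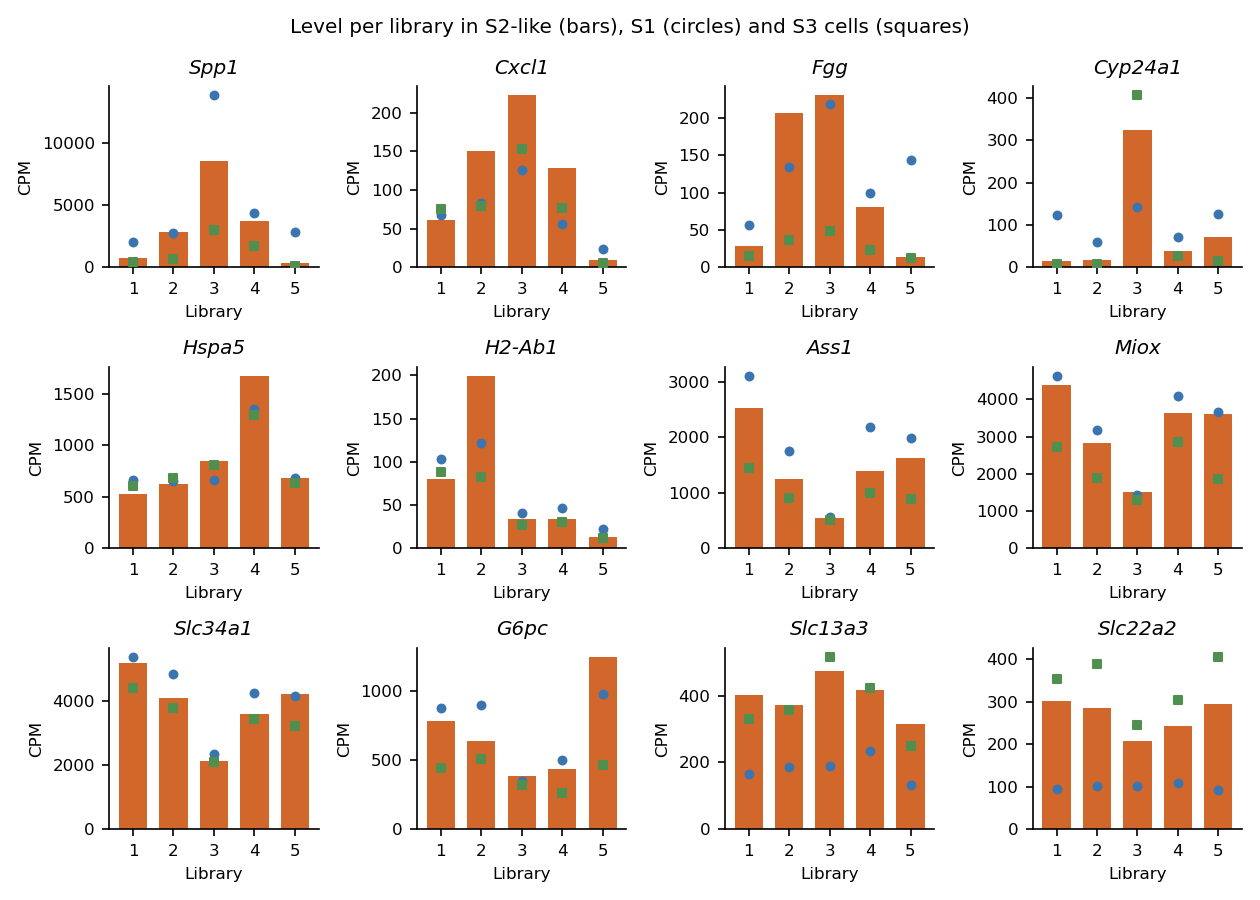
Level in CPM (linear y axes from 0) of 12 genes by library (x axis) in S2-like cells (bars), S1 cells (circles) and S3 cells (squares). Spp1, Cxcl1, Fgg and Cyp24a1 in S2-like cells were highest in library 3 and Ass1, Miox, Slc34a1 and G6pc lowest there, Hspa5 was highest in library 4, and Slc13a3 and Slc22a2 stayed within 316 to 473 and 207 to 302 CPM.

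Since libraries differed in where their S2-like cells lay between S1 and S3, the spread was also taken over the 705 cells with a share between the S1 and S3 ranges, of which libraries 1 to 5 held 81, 76, 217, 215 and 116. Spp1, Ass1 and Gatm are S1-high genes of the axis, and each was left out of the share when its own spread was taken, over 757, 709 and 678 cells. The ratio of the highest to the lowest library was 17.3 for Spp1 in these cells, against 24.7 in all S2-like cells. For Ass1 it was 5.36 against 4.63 and for Gatm 5.15 against 3.00. Among genes that were not on the axis it was 1.497 against 2.11 for Kap, 34.3 against 23.4 for Cyp24a1 and 3.00 against 3.20 for Hspa5. The limits of the band were pooled over libraries. Of the S3 cells of libraries 1 to 5, 4.44%, 3.52%, 17.2%, 14.2% and 1.05% fell in it. An equal share therefore need not be an equal place between S1 and S3 in each library, and this was not tested.

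Within a library, cells also differed. After thinning to 3000 UMIs, the variance of UMIs over their mean (Fano factor, averaged over libraries) was 131 for the nuclear RNA Malat1, 38.0 for Kap and 23.3 for Spp1, and it was 1.29 for Slc13a3, 1.08 for Slc22a2 and 1.04 for Aqp1. This measure rises with the level of a gene, and these genes differ widely in level. The variance beyond counting, divided by the squared mean, was 0.81 for Malat1, 0.39 for Kap and 4.00 for Spp1, and 0.25 for Slc13a3, 0.11 for Slc22a2 and 0.067 for Aqp1. By this measure Kap (0.21 to 0.69 in single libraries) and Slc13a3 (0.15 to 0.41) overlapped, and Spp1 (1.05 to 9.60) lay above both. The 4 mitochondrial transcripts among the 10 highest, mt-Atp6, mt-Co3, mt-Cytb and mt-Co2, had 11.6 to 15.3. For S100a6 (16.7), Tmsb4x (15.5) and S100g (8.98), 48.7%, 20.5% and 76.6% of the UMIs of the highest library came from 1 cell.

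Markers of other cell types were low in S2-like cells and were not evenly spread. Summed over their lists, fibroblast and pericyte markers were at 0 to 3.09 CPM per library, lymphocyte markers at 0.307 to 7.20 CPM, endothelial markers at 0.307 to 5.66 CPM, podocyte markers at 0.921 to 6.69 CPM and intercalated cell markers at 0.515 to 6.20 CPM. The intercalated gene Slc4a1 and the B cell gene Ms4a1 were at 0 UMIs. Thick ascending limb markers (4 outside the rule) summed to 6.45 to 102 CPM and were highest in library 3, where Umod alone was at 99.0 CPM. Principal cell markers summed to 11.05 to 189 CPM, highest in library 5, where 1 cell held 93.8% of the UMIs of Aqp2. In libraries 1 to 4 most of the sum was Aqp3, at 41.7, 20.6, 20.2 and 9.82 CPM. In library 5 Aqp3 was at 43.6 CPM, with 61.2% of its UMIs from 1 cell. Its mean was 27.2 CPM in S2-like, 17.2 in S1 and 15.3 in S3 cells, and 11.1 CPM in free RNA. The 7 myeloid markers summed to 152, 357, 129, 56.5 and 23.6 CPM in libraries 1 to 5, against 15492 CPM in barcodes with a UMI of Ptprc.

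The myeloid marker with the highest level was Cd74 in every library, the chain that accompanies MHC class II, at 134, 316, 49.2, 34.7 and 16.01 CPM. The class II genes H2-Ab1 (79.8, 200, 34.1, 34.1 and 12.5 CPM) and H2-Aa (19.0, 59.2, 13.5, 7.67 and 3.56 CPM) had the same highest and lowest library. The macrophage genes C1qa and C1qb were at 0 to 3.77 CPM. In free RNA Cd74 was at 906, 576, 125, 133 and 62.3 CPM. The macrophage gene Lyz2 was at 0.445 to 29.5 CPM, highest in library 3. The part of leukocyte RNA in the class II values was not tested.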

How the data were processed

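The data were 3′ single-cell RNA-seq of mouse kidney, deposited as 1 merged matrix of UMI counts for 32285 genes and 10474594 barcodes of 5 libraries. Per the labels and the file header, the authors made these counts with Cell Ranger 6.0 on mm10, and the deposited counts are raw, with empty barcodes included. How reads were assigned to near-identical genes is not given in the sources used here.

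Barcodes were kept and classed by the limits in the report. UMIs were summed per class and library, scaled to CPM and averaged over libraries. Ratios of classes used a floor of 3 UMIs over the summed libraries of a class, and library spreads a floor of 3 UMIs per library. No test was fitted, because the barcodes could not be assigned to samples and the classes were cut by genes of the same cells. For thinned values each cell was drawn down to 3000 UMIs at random with a fixed seed. The 8 genes of the rule were left out of calls. Named were the genes of 32 lists (316 genes), the 15 highest without mt- and ribosomal protein genes, the 10 called genes with the largest ratio in each direction of each comparison, the 10 with the largest library spread, and the 10 with the highest Fano factor. Genes outside this rule are marked where named. The members and lists were chosen with earlier results of these data known. Doublets were kept, and Scrublet (in Scanpy 1.11.5) was used for an alternative that took out the highest scores at 0.8% per 1000 cells, since its own threshold marked 4 of 37382 barcodes and so had not worked. Alternatives covered the UMI, mitochondrial, Slc22a6 and expression limits, doublets, thinning, summing over libraries and leaving out each library. The calling code was tested on simulated data. Promoters were from RefSeq and gene positions from GENCODE, both on GRCm38.p6, the patched release of mm10, and 239 of the listed genes had a promoter. Work was done in Python 3.11.15 with NumPy 2.4.6, SciPy 1.17.1 and pandas 2.3.3. Total UMIs per library ran from 82426945 to 139382799, and precision at low levels is limited by the 1943246 to 4514535 UMIs of S2-like cells per library. Some genes of the lists entered the counts and are not reported here by name.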

Additional observations from a re-analysis of the deposited data

Results flagged for a closer look

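Barcodes outside the kept cells also met the 8 marker limits of the rule. There were 219 of them with over 25% mitochondrial UMIs (71, 33, 25, 49 and 41 in libraries 1 to 5), which was 9.42% of these barcodes and the members together. Their Slc13a3 level was 399 CPM and their Kap level 38688 CPM, with a median mitochondrial share of 30.2%. A further 454 had at least 1000 and under 3000 UMIs (123, 96, 106, 41 and 88 in libraries 1 to 5), or 17.7% of these and the members. Their Slc13a3 level was 293 CPM and their Kap level 47434 CPM. Both sets lay outside the depth or mitochondrial limit and went into no comparison, and what they are was not tested.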

How the results depend on the processing

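Of 194 values recomputed under another setting, 139 stayed the same and 55 moved. A change of direction was looked for only in the log2 ratio of Slc13a3 to S1, and 0 were found. Counts were taken as the same within 1.5 times, and Slc13a3 levels and ratios within the half-width of their counting interval. The axis median was taken as the same within the standard deviation of the library medians. A Slc13a3 value that moved can therefore still lie within the spread between libraries. The causes were not tested beyond what each setting does by construction. With a mitochondrial limit of 10%, 925 S2-like cells were left, Slc13a3 was at 382 CPM (log2 0.94 to S1 and 0.036 to S3), 200 genes were called higher than Havcr1-positive cells, 0 lower than both neighbours and 2702 for library spread. With at least 4 UMIs of Slc22a6, 1403 cells were left, Slc13a3 was at 419.5 CPM (log2 1.21 and 0.16), and 2 genes were lower than both, Cryab and S100a6. With at least 1 UMI it was at 378 CPM (1.06 and 0.011), with 0 genes lower than both. Without the highest Scrublet scores the log2 ratio to S1 was 1.18, and 0 genes were lower than both. Thinned cells gave 2014 genes for library spread. UMIs summed over libraries gave Slc13a3 at 410.4 CPM (log2 0.34 to S3), 66 genes higher than S3, 201 lower than Havcr1-positive cells and 0 lower than both, and cannot give a library spread. At 5 CPM, 202 and 323 genes were higher and lower than S1, 87 and 79 than S3, 163 and 624 than Havcr1-positive cells, 1 was higher than both (Gm43189, named after its values were seen) and 3356 had a library spread. At 100 CPM these were 57 and 39, 10 and 13, 40 and 78, with 0 lower than both and 361 for spread. The axis median was 66.4% with Kap, 62.0% with genes 4-fold apart, and 62.8% without Spp1 and Gpx3.

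Leaving out each library in turn gave 1408 to 1831 cells, Slc13a3 at 376.5 to 415.9 CPM, log2 ratios of 1.07 to 1.21 to S1 and 0.030 to 0.15 to S3, 117 to 130 genes higher and 114 to 161 lower than S1, 34 to 49 higher and 37 to 61 lower than S3, and 61 to 128 higher and 227 to 412 lower than Havcr1-positive cells. It gave 0 to 1 genes higher than both, 0 to 1 lower than both, 671 to 1203 for library spread and an axis median of 50% to 53.8%. Of 185 called pairs of a listed or named gene and a comparison, 65 lost the call at a setting other than an expression minimum (16 of 71 against S1, 14 of 38 against S3 and 35 of 76 against Havcr1-positive cells), 39 of them when 1 library was left out. Of the 60 pairs with the largest ratios 14 did so. Ratios of classes within each library are given without a test, since the classes were cut from the same cells and the library numbers name no labelled sample.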
